A study of Mus musculus with 6 samples.

Results

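The genes described here are 10 genes that mark macrophages of the borders of the nervous system: *Stab1*, *Mrc1*, *F13a1*, *Cd163*, *Lyve1*, *Pf4*, *Cbr2*, *Folr2*, *Ms4a7* and *Itgam*, out of 55573 genes in the count table. They were read out of the table by gene identifier and symbol. The group as a whole was chosen by its measured differences between *Ezh2* and GFP libraries, the same differences given here, so those values are a description and carry no test. Border macrophages line the vessels, meninges and choroid plexus. They take up proteins, lipids, hyaluronan and iron-bearing complexes through scavenger receptors, and they differ from microglia, the macrophages of the nervous tissue itself, in surface receptors such as CD206. In the eye, cells of this kind sit along retinal vessels, in the ciliary body and in the optic nerve sheath.

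RNA-Seq was done on adult C57BL/6J mouse retinas. The GFP group (n = 3 libraries) received AAV2-GFP, an adeno-associated virus vector carrying green fluorescent protein, into the vitreous. The *Ezh2* group (n = 3 libraries) received AAV2-*Ezh2*, which carries the gene of the histone methyltransferase that places the repressive mark on lysine 27 of histone H3. In both groups the optic nerve was crushed 2 weeks later, and cells were sorted 3 days after the crush as CD90.2-positive and negative for a dead-cell dye to enrich retinal ganglion cells (RGCs). The vector is not restricted to RGCs. The question the design addresses is which transcripts in the sorted cells differ when *Ezh2* is overexpressed. The main comparison set *Ezh2* replicates 1 and 2 against the 3 GFP libraries, with *Ezh2* replicate 3 given apart.

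The libraries held 30569933 to 35971192 counts. *Ezh2* itself was counted 880 to 1094 times in the GFP libraries and 2287 to 3770 times in the *Ezh2* libraries, which did not overlap. *Ezh2* replicate 3 stood apart from its group: the chi-square per gene between its counts and those of replicates 1 and 2 was 55.5 and 62.9, against 8.13 between those 2 and 5.27 to 6.58 within GFP. The labelled cell type was checked with 10 RGC markers. *Rbpms* was counted 501 to 671 times and *Slc17a6* 125 to 294 times per library, but the RGC transcription factor gene *Pou4f2* was counted 0 to 3 times and *Pou4f1* 0 to 19 times. Macrophage transcripts were abundant in every library, *Csf1r*, the receptor for the growth factor that keeps macrophages alive, at 15347 to 21460 counts. In such bulk libraries, more or fewer cells of a type and more or less RNA per cell cannot be told apart.

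The promoters of the members are shown first, because *Stab1* gave the most counts of the group and *Pf4* and *Ms4a7*, like *Folr2*, hold a searched motif in a window. RefSeq windows (GRCm38.p6) matched 9 of the 10 members in 12 windows; *Lyve1* had none. The 250 bases before each start were searched on both strands for GAGGAAGT (PU.1, the master transcription factor of myeloid cells), TGCTGAC (the core of the site of MAF, a factor of tissue macrophages), TGANTCA (AP-1) and TTGCNNAA (C/EBP). Each of the following lines runs 5′ to 3′ on the gene's own strand and ends at the base before the start, with motif letters in capitals. The *Stab1* window lies on the minus strand at chr14:31168642-31168891, the *Pf4* window on the plus strand at chr5:90772185-90772434, and the *Ms4a7* window shown on the minus strand at chr19:11334696-11334945, inside the annotated gene.
Stab1: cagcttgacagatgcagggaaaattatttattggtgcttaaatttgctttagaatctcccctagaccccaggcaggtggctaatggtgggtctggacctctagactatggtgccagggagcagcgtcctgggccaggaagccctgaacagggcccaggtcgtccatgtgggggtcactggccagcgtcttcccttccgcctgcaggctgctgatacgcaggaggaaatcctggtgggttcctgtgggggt
Pf4: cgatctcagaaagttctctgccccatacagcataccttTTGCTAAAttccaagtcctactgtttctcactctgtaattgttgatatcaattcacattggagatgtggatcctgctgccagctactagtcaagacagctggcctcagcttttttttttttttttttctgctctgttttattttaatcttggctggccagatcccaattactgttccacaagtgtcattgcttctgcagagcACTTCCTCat
Ms4a7: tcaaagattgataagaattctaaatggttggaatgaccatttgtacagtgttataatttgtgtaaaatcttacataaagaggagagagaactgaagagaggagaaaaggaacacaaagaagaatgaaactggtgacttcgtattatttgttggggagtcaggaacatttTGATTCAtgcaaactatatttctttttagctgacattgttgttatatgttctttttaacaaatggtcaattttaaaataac
The *Pf4* window held ACTTCCTC, the PU.1 letters read on the opposite strand, 10 to 3 bases before the start, and TTGCTAAA, a C/EBP match, 212 to 205 bases before it. The *Ms4a7* window shown held TGATTCA, an AP-1 match, 81 to 75 bases before the start, and 1 of the *Folr2* windows, on the minus strand at chr7:101845332-101845581, held TGACTCA 74 to 68 bases before it. The other *Ms4a7* window, at chr19:11336147-11336396 directly before the annotated gene, held none of the searched letters, and neither did the other *Folr2* window. No searched letters were in the *Stab1* window, nor in those of *Mrc1*, *F13a1*, *Cd163*, *Cbr2* and *Itgam*. Over all 32851 mouse windows of this length the PU.1 letters were in 2.44%, the MAF letters in 3.81%, the AP-1 letters in 6.75% and the C/EBP letters in 9.56%. A match is a run of letters and says nothing of binding.

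*Stab1* encodes stabilin-1, a large scavenger receptor that clears modified lipoproteins and matrix proteins and is made by tissue macrophages and sinusoidal endothelium. The gene lies at chr14:31139013-31168641 (GRCm38, minus strand). Its counts were 1693, 2037 and 1913 in GFP replicates 1 to 3, 7035 and 8487 in *Ezh2* replicates 1 and 2, and 7442 in *Ezh2* replicate 3. All 3 *Ezh2* libraries were far above all GFP libraries. The mean level, with counts scaled to the library total (CPM), was 60.7 ± 4.69 (SD, n = 3) in GFP and 230.4 ± 16.8 (SD, n = 2) in *Ezh2*, a ratio of 3.80. The edgeR log2 fold change was 1.94 ± 0.06 (SE) over 5 libraries and 1.91 with all 6. *Stab1* shares 112 exonic bases with *Nt5dc2* on the other strand, which ran the opposite way with 2394 to 2499 counts in GFP and 1893 to 2258 in *Ezh2*.

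**Figure D1:**
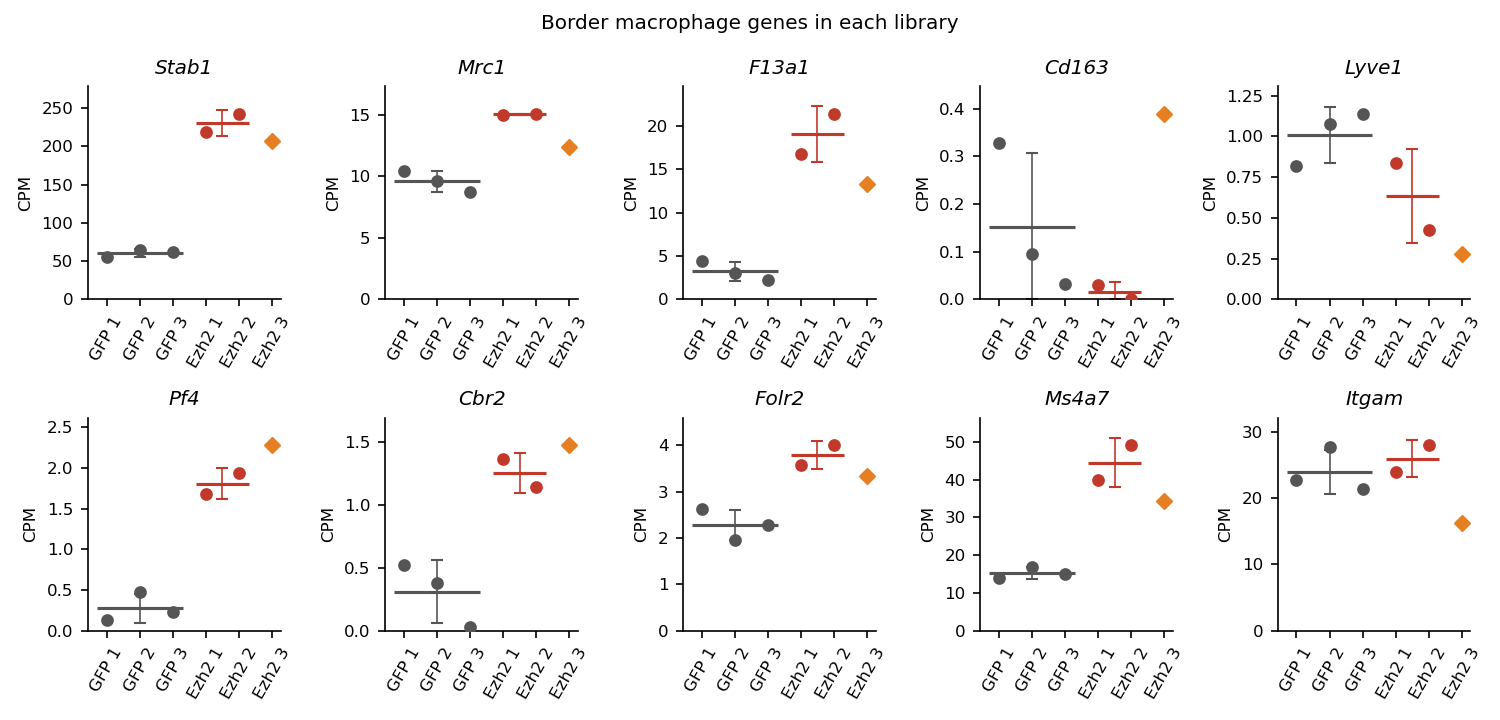
Levels of the 10 border macrophage genes in CPM (vertical axes, each from 0) in every library; grey, GFP replicates 1 to 3; red circles, *Ezh2* replicates 1 and 2; orange diamonds, *Ezh2* replicate 3. Lines are group means and bars are SD, cut at 0. The *Stab1* points of *Ezh2* lie at 206.9 to 242.3 CPM above GFP points at 55.4 to 64.4, while those of *Itgam*, *Lyve1* and *Cd163* overlap between the groups.

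The other endocytic receptors had smaller differences. *Mrc1* encodes CD206, the mannose receptor, the usual surface marker of perivascular macrophages. It was counted 318, 305 and 268 times in GFP, 483 and 528 times in *Ezh2* replicates 1 and 2, and 446 times in replicate 3. Every *Ezh2* library was above every GFP library, by a small step: 9.59 ± 0.842 CPM (SD, n = 3) in GFP and 15.0 ± 0.0516 CPM (SD, n = 2) in *Ezh2* replicates 1 and 2. The log2 fold change of *Mrc1* was 0.66 ± 0.12 (SE). *Folr2*, which encodes folate receptor β of resident tissue macrophages, was counted 80, 62 and 70 times in GFP, 115 and 140 times in *Ezh2* replicates 1 and 2, and 120 times in replicate 3. The groups did not overlap in CPM, and the log2 fold change was 0.74 ± 0.24 (SE). *Folr2* overlaps the antisense gene *Gm10602* over 975 exonic bases, which was counted 77 to 159 times, so reads of the pair cannot be told apart if strand was not used in counting.

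*Lyve1* encodes a hyaluronan receptor of lymphatic endothelium and of one kind of vessel-associated macrophage. Its counts were 25, 34 and 35 in GFP, 27 and 15 in *Ezh2* replicates 1 and 2, and 10 in replicate 3. *Lyve1* was the member with the lowest fitted fold change, at a log2 value of -0.67 ± 0.45 (SE), and *Ezh2* replicate 1 at 0.839 CPM lay within the GFP span of 0.818 to 1.14. *Cd163* encodes the receptor for haptoglobin-haemoglobin complexes. It was counted 10, 3 and 1 times in GFP, 1 and 0 times in *Ezh2* replicates 1 and 2, and 14 times in replicate 3. It did not pass the filter on low counts, and no fold is given, since most of these values are at or under the floor of 3 counts. This marker of many border macrophages was thus at 14 counts or fewer in every library.

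The secreted members were low in GFP and several times higher in *Ezh2*. *F13a1* encodes the A subunit of coagulation factor XIII, a transglutaminase that cross-links fibrin and matrix and is stored in macrophages and platelets. It was counted 134, 98 and 69 times in GFP, 542 and 750 times in *Ezh2* replicates 1 and 2, and 478 times in replicate 3. The lowest *Ezh2* library, replicate 3 at 13.3 CPM, was above the highest GFP library at 4.38 CPM, and the log2 fold change was 2.57 ± 0.21 (SE). *Pf4* encodes the chemokine CXCL4, best known from platelet granules and also made by border macrophages. Its counts were 4, 15 and 7 in GFP, 54 and 68 in *Ezh2* replicates 1 and 2, and 82 in replicate 3. The groups did not overlap, and the log2 fold change was 2.69 ± 0.47 (SE). Only 1 GFP library reached the filter limit of 0.316 CPM in *Pf4*, so the gene was kept through the group where it is high. *Ppbp*, the gene of another platelet chemokine, had 0 counts in every library, which allows up to 3 counts per library. Of 8 platelet and megakaryocyte markers 2 were tested and 0 were called by edgeR, with 1 at an unadjusted p under 0.05.

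*Cbr2* encodes a carbonyl reductase that resident macrophages of several tissues carry. It was counted 16, 12 and 1 times in GFP, 44 and 40 times in *Ezh2* replicates 1 and 2, and 53 times in replicate 3. The groups did not overlap, but the GFP libraries spread widely, and the log2 fold change of 2.00 had an SE of 0.57. *Ms4a7* encodes a membrane protein of the MS4A family that sets border macrophages apart from microglia. It was counted 427, 535 and 465 times in GFP, 1284 and 1719 times in *Ezh2* replicates 1 and 2, and 1240 times in replicate 3. After *Stab1* it was the member with the smallest SE, at a log2 fold change of 1.55 ± 0.10, and its groups did not overlap. *Itgam* encodes CD11b, the integrin chain that pairs with the *Itgb2* product to form complement receptor 3 on macrophages, microglia, monocytes and granulocytes alike. It was counted 693, 875 and 657 times in GFP, 771 and 979 times in *Ezh2* replicates 1 and 2, and 584 times in replicate 3. The groups overlapped and the log2 fold change was 0.13 ± 0.10 (SE), turning to -0.04 with all 6 libraries.

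Of the 10 genes, 9 passed the filter, and 7 met the rule of an edgeR adjusted p under 0.05 with a fold over 1.5, all higher in *Ezh2*. These are *Stab1*, *Mrc1*, *F13a1*, *Pf4*, *Cbr2*, *Folr2* and *Ms4a7*. Over all 20241 genes tested, the same rule called 2.52% higher and 1.28% lower. With all 6 libraries 5 members were called, *Cbr2* and *Folr2* no longer, where the rule called 1.62% of the 19732 genes tested as higher and 0.902% as lower. In 7 members every *Ezh2* library was above every GFP library, a pattern that 14.9% of tested genes showed. The members were selected on this contrast, so their calls are a description and no test, and the shares stand beside them only as background. *Pf4* also passed the filter only through the group where it is high.

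Per exon length, the members lay over a wide range. In RPKM, which divides CPM by exon length in kilobases, GFP means ran from *Stab1* at 5.90 ± 0.456 (SD, n = 3) over *Itgam* at 4.76 ± 0.659, *Ms4a7* at 3.44 ± 0.332, *Mrc1* at 1.51 ± 0.132 and *Folr2* at 1.48 ± 0.213 down to *Cd163* at 0.0277 ± 0.0284. *Itgam* shares 3450 of its 5024 exonic bases with *Gm49368* on the same strand, which was counted 0 to 1 times, so its level is uncertain if shared reads were dropped. *Stab1* and *Itgam* overlapped in GFP, as did *Mrc1* and *Folr2*. The lower neighbours *F13a1*, *Pf4*, *Lyve1*, *Cbr2* and *Cd163* each overlapped the next as well. In *Ezh2* replicates 1 and 2, *Stab1* was at 22.4 ± 1.64 RPKM (SD, n = 2) and *Ms4a7* was second at 9.99 ± 1.46, ahead of *Itgam* at 5.16 ± 0.564. *F13a1* moved from rank 6 to rank 4, and *Mrc1* from rank 4 to rank 7.

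**Figure D2:**
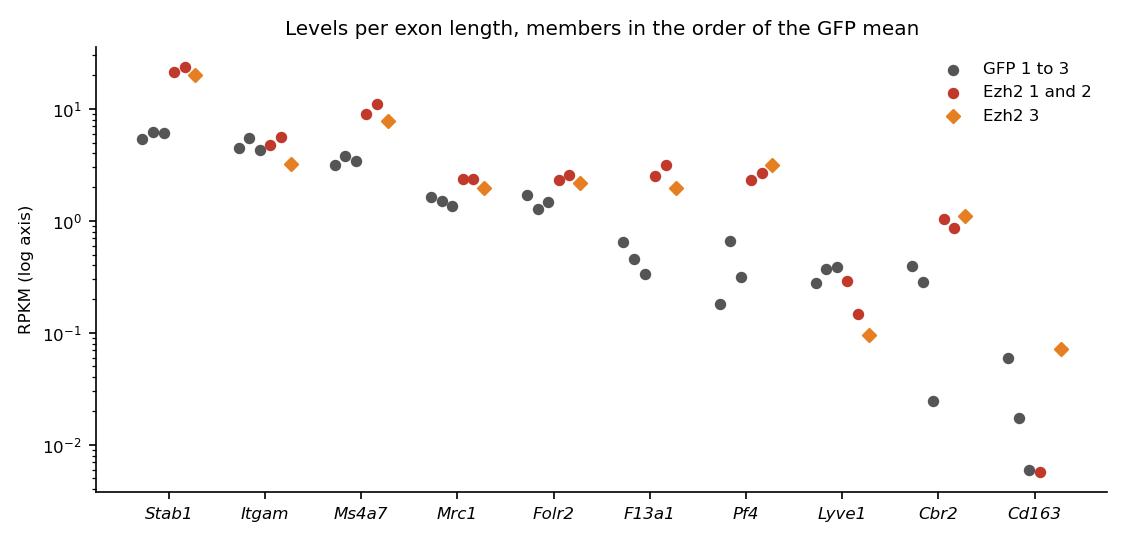
RPKM of each member (vertical log axis) in every library, with members ordered along the horizontal axis by their GFP mean; the value of 0 for *Cd163* in *Ezh2* replicate 2 is not drawn. *Stab1* is the highest of the members in each of the 6 libraries, and *Itgam* lies at a like level in both groups, apart from *Ezh2* replicate 3 at 3.23 RPKM.

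Border macrophage transcripts were also read against *Csf1r*, which all macrophages of the retina carry and which differed by a log2 fold change of 0.26 ± 0.05 (SE). This scaling was chosen after the data were seen. Per 1000 *Csf1r* counts, *Stab1* had 109.7, 118.1 and 124.6 counts in GFP, 355.4 and 395.5 in *Ezh2* replicates 1 and 2, and 462.6 in replicate 3. Such a fold depends on the reference gene. Over the 15 general macrophage genes described below, the CPM ratio of *Ezh2* replicates 1 and 2 to GFP ran from 0.975 for *Mertk* to 4.54 for *Lyz2*. For *Csf1r* it was 1.19, and *Ezh2* replicate 3 held 0.866 of its GFP mean. Scaled to *Csf1r*, *Stab1* was 3.20-fold higher in *Ezh2* replicates 1 and 2 and 3.94-fold higher in replicate 3. *F13a1* was 4.96-fold higher on this scale, *Pf4* 5.58-fold, *Cbr2* 3.41-fold and *Ms4a7* 2.44-fold. *Mrc1* at 1.32-fold and *Folr2* at 1.39-fold were under a 1.5-fold difference in *Ezh2* replicates 1 and 2, and *Itgam* stood at 0.916-fold. *Lyve1* was at 0.527-fold, with 1.62 to 2.28 counts per 1000 *Csf1r* counts in GFP and 0.622 to 1.36 in *Ezh2*, so its groups, which overlapped in CPM, did not overlap on this scale. *Csf1r* shares 873 exonic bases with *Hmgxb3* on the other strand.

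**Figure D3:**
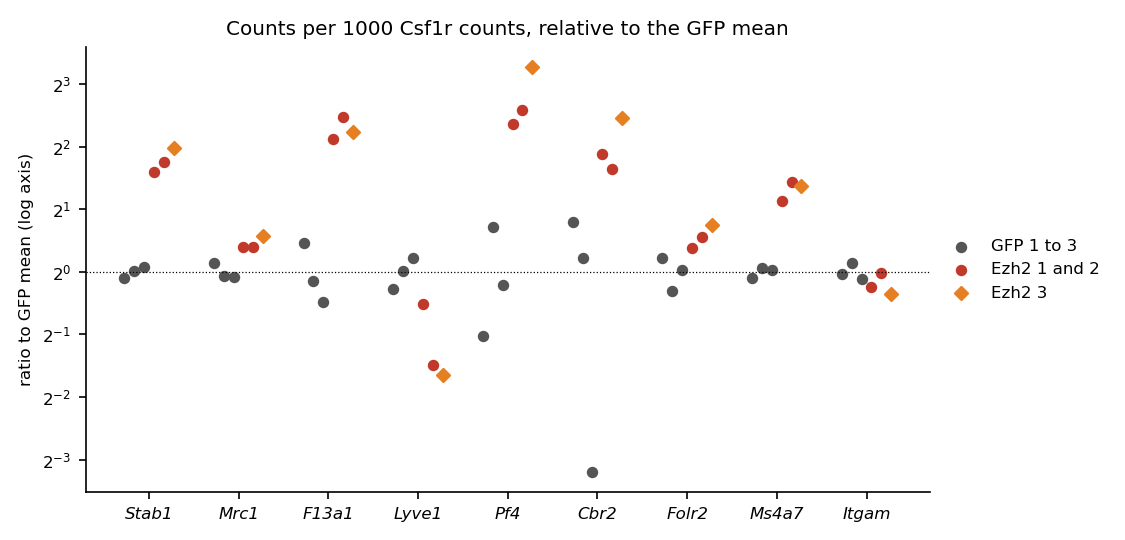
Counts per 1000 *Csf1r* counts divided by the GFP mean (vertical log axis; the dotted line marks equality with the GFP mean) for 9 members in each library; *Cd163* is left out for its low counts. *Stab1*, *F13a1*, *Pf4*, *Cbr2* and *Ms4a7* lie apart from GFP in all 3 *Ezh2* libraries, *Mrc1* and *Folr2* by a smaller step, while *Itgam*, whose points overlap between the groups, and *Lyve1*, whose points do not, lie below the line in all 3 *Ezh2* libraries.

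*Ezh2* replicate 3 held most of the same differences at other levels. Its CPM was below both other *Ezh2* libraries in 7 members and above both in 3. It had 89.8% of the mean of *Ezh2* replicates 1 and 2 for *Stab1*, 77.5% for *Ms4a7*, 69.5% for *F13a1* and 62.6% for *Itgam*, but 117.5% for *Cbr2* and 126% for *Pf4*. Summed over the 10 members it held 291.0 CPM, against 321.6 and 363.3 in *Ezh2* replicates 1 and 2 and 111.2 to 125.6 in GFP. Markers of other cell types also moved in this library: 8 summed T cell markers were at 844.7 CPM, against 511.4 and 484.8 in the other *Ezh2* libraries and 370.1 to 401.3 in GFP, and 6 summed B cell markers at 288.4 CPM, against 506.2 and 477.2 and against 463.3 to 515.1 in GFP. *Jchain* held most of the B cell sum, with 269.5 CPM in replicate 3, 479.5 and 448.8 in the other *Ezh2* libraries and 440.5 to 490.3 in GFP. No other B cell marker passed 10.3 CPM in any library. The part of these other cell types in the members' values was not tested.

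The genes most like *Stab1* across the 6 libraries, by Pearson r of log2 CPM among 13772 genes with a mean of at least 100 counts, were *Gpnmb*, *Siglec1*, *Dnase1l1*, *Sh2b2* and *Ighv1-80*, with r from 0.997 to 0.999. The libraries fall into 2 groups, so r here mostly reads the step between GFP and *Ezh2*, and 29 genes outside the members had r above 0.99. *Gpnmb*, a glycoprotein gene of lipid-laden and phagocytic macrophages, was at 29.7, 38.4 and 30.3 CPM in GFP, 408.6 and 536.5 in *Ezh2* replicates 1 and 2, and 374.4 in replicate 3. That step is larger than the one in *Stab1*, with no overlap between the groups. *Siglec1* is described with the list it belongs to. *Ighv1-80*, an immunoglobulin variable segment, had 0 CPM in every GFP library and 6.31 to 9.14 CPM in *Ezh2*. Among the members, r with *Stab1* was 0.9895 for *Ms4a7*, 0.958 for *F13a1*, 0.922 for *Mrc1* and -0.118 for *Itgam*.

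Some other border macrophage genes were also higher in *Ezh2*. Of 22 further genes of this kind, 18 passed the filter, 10 were called higher and 0 lower (14 were higher and 2 lower at an unadjusted p under 0.05). Over all tested genes 2.52% were called higher and 1.28% lower. The median log2 fold change of the list was 0.70, against -0.0078 over all tested genes. This list and those below were chosen with earlier results of these data known, so their counts of calls are a description. *Siglec1*, the sialic acid receptor CD169, was counted 664 to 799 times in GFP and 1595 to 1836 times in *Ezh2*, a log2 fold change of 1.11 ± 0.08 (SE, edgeR adjusted p = 1.88e-11). *Cd38*, an enzyme that degrades NAD, rose by 1.504 ± 0.099 (adjusted p = 5.87e-11), and *Wfdc17*, a small secreted protein of activated macrophages, by 2.32 ± 0.16 (adjusted p = 4.01e-12). The lectin gene *Clec12a* rose by 1.48 ± 0.15, the endocytic adaptor gene *Dab2* by 1.10 ± 0.13, and *Ms4a6c*, a relative of *Ms4a7*, by 0.78 ± 0.08, with edgeR adjusted p of at most 1.4e-06 for these 3 genes. *Clec10a*, a galactose lectin, at 0.75 ± 0.16 (adjusted p = 0.00075) and *Timd4*, a phosphatidylserine receptor, at 0.64 ± 0.19 (adjusted p = 0.0166) were called over 5 libraries but not over 6, where 8 genes of the list were called. Of the genes not called, *Cd209f* was counted 0 to 3 times per library, *Ccl24* 2 to 19 times and *Fcna* 0 to 17 times, and 4 tested genes had values below 0. *Igfbp4*, a binding protein of insulin-like growth factors, had a log2 fold change of -0.47 ± 0.07, below the fold limit, and the galactose lectin gene *Mgl2* one of -0.45 ± 0.19 (edgeR adjusted p = 0.115), with 157 to 256 counts in GFP, 182 and 160 in *Ezh2* replicates 1 and 2, and 54 in replicate 3. The scavenger receptor genes *Cd36* and *Colec12* both stood at -0.10. Replicates are separate samples by their labels, which do not say that each came from its own animals, so these p-values measure only the spread between the libraries.

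**Figure D4:**
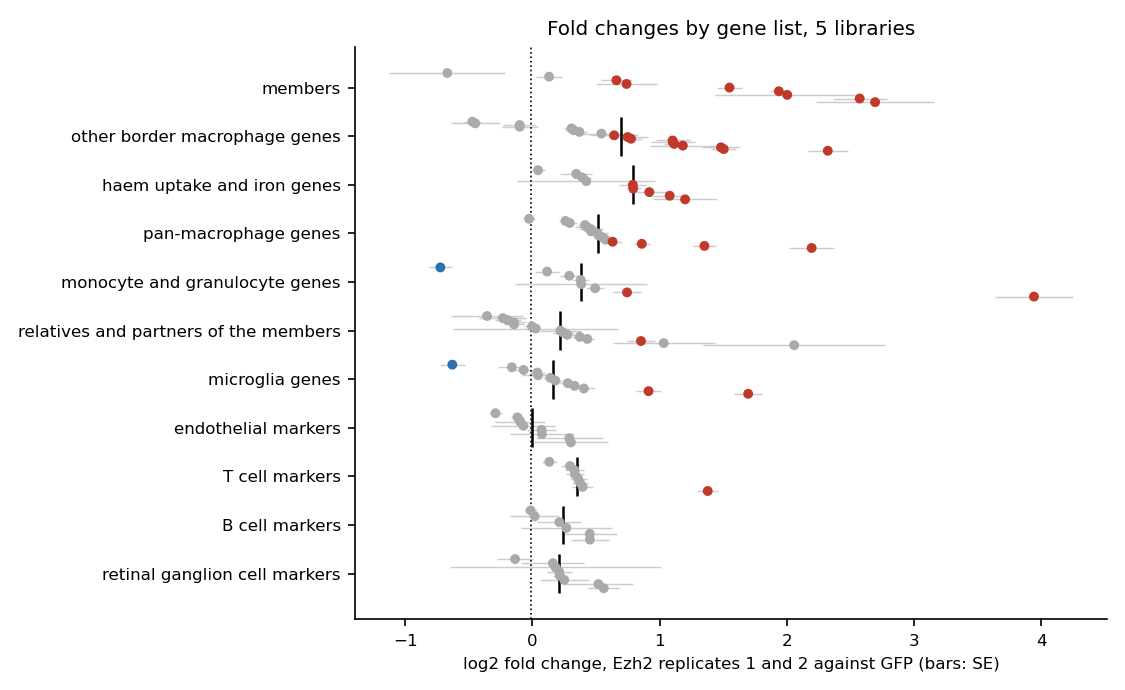
Log2 fold changes of *Ezh2* replicates 1 and 2 against GFP (horizontal axis; bars, SE) for each tested gene of 11 lists; red, called higher; blue, called lower; grey, not called. Black lines are list medians, left out for the members, and the dotted line is the median of all tested genes at -0.0078. Other border macrophage genes have 10 of 18 tested genes in red, haem uptake and iron genes 5 of 9 and microglia genes 2 of 12. Of all tested genes 2.52% were called higher, and the lists were chosen with earlier results of these data known.

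Close relatives and partners of the members were read beside the share of all tested genes called higher, 2.52% over 5 libraries and 1.62% over 6. Of 17 such genes, 15 were tested and 1 was called higher over 5 libraries (7 at an unadjusted p under 0.05) and 0 over 6 (5 at an unadjusted p under 0.05). This was *Ms4a6d*, another MS4A gene, at a log2 fold change of 0.85 ± 0.11 (edgeR adjusted p = 1.62e-05 over 5 libraries, 0.0527 over 6). The count was 3 without GFP replicate 2 or without *Ezh2* replicate 1. *Stab2*, the other stabilin, a hyaluronan receptor of sinusoidal endothelium, was counted 45, 60 and 20 times in GFP, 55 and 130 times in *Ezh2* replicates 1 and 2, and 61 times in replicate 3. Its log2 fold change of 1.03 ± 0.40 did not pass the test (edgeR adjusted p = 0.0923). *Itgb2*, the β chain that pairs with CD11b, stood at 0.43 ± 0.05 (adjusted p = 1.84e-07), under the fold limit. *F13b*, the carrier subunit of factor XIII made in liver, was counted 0 to 2 times.

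Genes of haem uptake and iron handling, to which the *Cd163* receptor belongs by function, were tested in 9 of 10 cases, with 5 called higher and 0 lower over 5 libraries (7 higher and 0 lower at an unadjusted p under 0.05) and 3 higher over 6. Of all tested genes, 2.52% were called higher over 5 libraries and 1.62% over 6. *Hmox1*, haem oxygenase, rose by 0.79 ± 0.11 on the log2 scale (edgeR adjusted p = 2.65e-06), *Ftl1*, the ferritin light chain, by 0.79 ± 0.06 (adjusted p = 4.98e-10), and the scavenger receptor gene *Msr1* by 1.08 ± 0.13 (adjusted p = 2.41e-07). *Slc40a1*, the iron exporter ferroportin, at 0.92 ± 0.16 (adjusted p = 9.55e-05) and *Hp*, haptoglobin, at 1.2 ± 0.25 (adjusted p = 0.00071) were called over 5 libraries only. *Cd163* itself had at most 14 counts.

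Most general macrophage genes were also higher in *Ezh2* replicates 1 and 2, mostly under the fold limit. All 15 were tested, and 14 were higher and 0 lower at an unadjusted p under 0.05 (10 higher over 6 libraries). By adjusted p alone 14 passed, and the median log2 fold change was 0.51. Where 2.52% of all tested genes were called higher and 1.28% lower, 4 of the list were called higher and 0 lower: *Lyz2*, lysozyme, at 2.20 ± 0.18 on the log2 scale, *Cd68*, a lysosomal glycoprotein, at 1.35 ± 0.09, *Tyrobp*, a signalling adaptor, at 0.86 ± 0.06, and *Fcer1g*, the Fc receptor γ chain, at 0.63 ± 0.07, with edgeR adjusted p of at most 0.00682. The count was 7 without *Ezh2* replicate 1. The summed list ran from 2971 to 3278 CPM in GFP and stood at 4938, 5613 and 4371 CPM in *Ezh2* replicates 1, 2 and 3. *Lyz2* alone held 329.2 to 379.5 CPM of it in GFP and 1406, 1868 and 1223 CPM in *Ezh2*, so a large part of the step between the groups lies in this gene. Most of the sum itself lies in the other genes. In replicate 3 the genes of the list ran both ways, from *Mertk* at 0.772 and *Csf1r* at 0.866 of the GFP mean to *Ptprc* at 2.77 and *Lyz2* at 3.39. Of 12 microglia genes, 2 were called higher and 1 lower (7 higher and 1 lower at an unadjusted p under 0.05). *Fcrls*, an Fc receptor-like gene, rose by 1.70 ± 0.11 (edgeR adjusted p = 1.49e-12) and *Trem2*, a lipid receptor, by 0.91 ± 0.10 (adjusted p = 0.000166 over 5 libraries, 0.0583 over 6), while *Sall1*, a transcription factor of microglial identity, fell by 0.63 ± 0.10 (adjusted p = 1.54e-05). The defining microglia genes *P2ry12* at -0.07 ± 0.10 and *Tmem119* at 0.04 ± 0.06 were not called. The summed microglia list was at 1025 to 1137 CPM in GFP and at 1276, 1378 and 954.9 in *Ezh2* replicates 1 to 3, so it was below every GFP library in replicate 3. Whether the share of these cell types in the sort had a part in the members' differences was not tested.

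Of 13 monocyte and granulocyte genes, 8 were tested, 2 were called higher and 1 lower (5 higher and 1 lower at an unadjusted p under 0.05). The share over all tested genes, for this list and those that follow, was 2.52% called higher and 1.28% lower. *Chil3*, a chitinase-like protein of recruited monocytes and activated macrophages, was counted 12, 20 and 9 times in GFP, 162 and 297 times in *Ezh2* replicates 1 and 2, and 385 times in replicate 3, a log2 fold change of 3.94 ± 0.31 (edgeR adjusted p = 1.77e-10). *Vcan*, the proteoglycan versican, fell by 0.72 ± 0.09 (adjusted p = 3.62e-07). Neutrophil markers were near 0, *Retnlg* at 0 counts in every library and *Ly6g* at 0 to 1. Of the cells that share single members, 8 endothelial markers gave 0 calls by edgeR in either direction, with 2 lower and 0 higher at an unadjusted p under 0.05. Their sum was 3215 to 3381 CPM in GFP and 2927, 2943 and 2336 CPM in *Ezh2* replicates 1 to 3. The 2 lower genes, *Kdr* at 2276 to 2429 CPM and *Flt1* at 906.0 to 925.8 CPM in GFP, held most of this sum. No other marker of the list passed 16.7 CPM in any library, and their log2 fold changes ran from -0.10 for *Esam* to 0.30 for *Tek*. Of 6 lymphatic endothelial markers, the type that *Lyve1* also marks, 4 were tested, and *Reln*, a secreted matrix protein also made by neurons, fell by 1.13 ± 0.07 (edgeR adjusted p = 2.94e-13), while *Ccl21a* had 0 counts and *Mmrn1* 0 to 2. Of 8 T cell markers, *Cd8a* rose by 1.38 ± 0.08 (edgeR adjusted p = 2.76e-13), and it was the one marker past the fold limit, while all 8 were higher at an unadjusted p under 0.05 and 7 by adjusted p alone. The 6 B cell markers gave 0 calls by edgeR, with 2 higher at an unadjusted p under 0.05. Of the 10 RGC markers, 8 were tested and 0 were called by edgeR over 5 libraries, with 3 higher at an unadjusted p under 0.05, and 1 was called over 6. For each of these lists DESeq2 gave the same counts of calls in each direction as edgeR over the 5 libraries.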

How the data were processed

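Gene counts of 6 mouse RNA-Seq libraries (total RNA, stranded kit) were used. The authors mapped reads with STAR 2.7.0d to GRCm38 per the labels' processing notes, and deposited raw counts per Ensembl gene. The counting program, annotation release and strand setting are not given in the sources used here. Of 55573 identifiers, 55480 matched GENCODE M21, which gave symbols, positions and exon lengths. No column of sample values was without a sample (0 columns). CPM used library totals. edgeR 4.0.16 in R 4.3.3 (filterByExpr, TMM, robust quasi-likelihood F test) was fitted to all genes of GFP replicates 1 to 3 and *Ezh2* replicates 1 and 2, with Benjamini-Hochberg adjustment over all tested genes. A gene was called at adjusted p under 0.05 and fold over 1.5. SE is the log2 fold change over the square root of F. The study left out 1 *Ezh2* library and its heatmaps show *Ezh2* replicates 1 and 2, so replicate 3 was taken as the one left out. Fits with all 6 libraries, DESeq2 1.42.0, other size factors and filters, a replicate block and each library left out were alternatives. Same-numbered libraries did not deviate together (correlations -0.00454, -0.0199 and -0.00991), and numbers were not taken as pairs. The deviations were from a group mean that includes *Ezh2* replicate 3, which stood apart. This check therefore cannot decide on pairs among the 5 libraries. Totals of 30569933 to 35971192 counts give a floor of 3 counts, which covers counting error only.

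The members and gene lists were chosen with earlier results of these data known. All members are named, as are all called genes of each other list if 8 or fewer, otherwise the 8 with the highest mean CPM. A called gene of the monocyte and granulocyte list is not reported here. The fit was tested on simulated data with known changes before use.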

Additional observations from a re-analysis of the deposited data

Results flagged for a closer look

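*Ezh2* replicate 3 lies outside the main comparison. In 7 members it was above every GFP library, as were the other *Ezh2* libraries, a pattern that 14.9% of tested genes showed. *Ezh2* replicate 3 held 207 CPM of *Stab1*, 12.4 of *Mrc1*, 13.3 of *F13a1*, 2.28 of *Pf4*, 1.47 of *Cbr2*, 3.34 of *Folr2* and 34.5 of *Ms4a7*. *Cd163* was at 0.389 CPM there, from 14 counts, against 10 counts in GFP replicate 1 and 0 or 1 in the other *Ezh2* libraries. The difference between this library and the rest of its group was not tested.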

How the results depend on the processing

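No fold change of a member that was called over 5 libraries turned sign in any setting. The number of members past a 1.5-fold difference was 7 in each fit that left out a library and 5 with genes of at least 50 mean counts alone or scaled to *Csf1r*, a scaling chosen after seeing the data. The members were selected on this contrast, so the calls that follow only describe the settings and are no test. The number of members called was 4 to 7: *Stab1*, *F13a1* and *Ms4a7* were called in every setting, *Pf4* in every one but DESeq2 and the 50-count filter, and *Mrc1* in every one but the block on 6 libraries. *Cbr2* and *Folr2* were lost with all 6 libraries, under both blocks and without *Ezh2* replicate 1 or 2, *Cbr2* also with DESeq2 and the 50-count filter, and *Folr2* also without GFP replicate 2 or 3. *Itgam* turned to -0.04 with all 6 libraries and -0.13 scaled to *Csf1r*.

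Over all genes, 770 were called over 5 libraries, 498 over 6, 3605 by adjusted p alone, and 624 to 794 when a library was left out. With the replicate block, 396 genes were called over 6 libraries, relatives of the members gave 2 on 5 and on 6 libraries, and haem and iron genes 3 on 6. Relatives also gave 0 with all 6 libraries, 3 with no filter, 2 without robust dispersions (chosen after seeing the data), 5 by adjusted p alone and 1 to 3 when a library was left out. Haem and iron genes gave 3 with all 6. Adjusted p alone gave 7 microglia, 14 pan-macrophage and 6 monocyte and granulocyte genes, and pan-macrophage genes gave 3 to 7 when a library was left out. The cause was not tested. With 2 *Ezh2* libraries, leaving out 1 assumes the other varies as GFP does. Depth limits *Cd163*, *Pf4* and *Cbr2*, each under 20 counts in every GFP library.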
